A study of Homo sapiens with 6 samples.

Results

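The genes described here carry MHC class I antigen presentation, the route by which a nucleated cell shows fragments of its own proteins to cytotoxic T cells and natural killer cells. The set was given by name: HLA-B, HLA-C, HLA-E and HLA-F (heavy chains), B2M (the light chain), TAP1, TAP2 and TAPBP (peptide supply and loading) and NLRC5 (a transcriptional activator), 9 of the 56303 genes in the count table. They were measured in SW480 cells, a line from a human colorectal adenocarcinoma, in which the authors compared a nonsilencing hairpin (shCtrl) with a hairpin against MORC2 (shMORC2), a nuclear ATPase of the microrchidia family. All 6 libraries, 3 per group, came from SW480 cells infected with lentivirus and selected with puromycin, without any added interferon named in the labels, and were made from polyadenylated RNA with a stranded kit. The methods call the selected lines clonal, so a difference made by the hairpin and a difference between the lines cannot be told apart.

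Class I molecules consist of a membrane-bound heavy chain, the light chain beta-2-microglobulin and a short peptide. The proteasome cuts the peptide, the transporter formed by TAP1 and TAP2 pumps it into the endoplasmic reticulum, and tapasin (TAPBP) holds an empty heavy chain beside the transporter until a peptide fits. Interferons raise most of these genes together, NLRC5 being the activator that binds at class I promoters, and tumour cells often lose part of the route.

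The genes lie in 3 places of GRCh38. The heavy chain genes HLA-F (chr6:29722775-29738528, plus strand), HLA-E (chr6:30489467-30494205, plus strand), HLA-C (chr6:31268749-31272130, minus strand) and HLA-B (chr6:31353872-31357188, minus strand) stand in the class I part of the MHC, with 81.7 kb between HLA-C and HLA-B. TAP2 (chr6:32821833-32838780), TAP1 (chr6:32845209-32853978) and TAPBP (chr6:33299694-33314387), all on the minus strand, follow on the same chromosome, with TAP2 ending 6.43 kb before TAP1. B2M (chr15:44711477-44718877) and NLRC5 (chr16:56989485-57083531) are on the plus strand of other chromosomes.

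The 250 bases before the start site were searched for 5 short motifs, on either strand, in the 7 members found in the RefSeq promoter table (GRCh38.p14). HLA-E and NLRC5 were not matched in it. The letters searched were GAAANNGAAA (the core of an interferon-stimulated response element, ISRE, held by 3.02% of the 35116 promoters of the same length), GGGNNTTCC (a kappa B element, 5.78%), TTCNNNGAA (a gamma-activated site, 6.57%), CCAAT (32.0%) and TGACG (the core of a cyclic AMP response element, 21.2%). The 5 promoters below are those of the classical heavy chains HLA-B and HLA-C, the light chain and the transporter pair. Each is given 5′ to 3′ on its gene's strand with the matches in capitals. A link between these letters and the changes of the genes was not tested.
HLA-B, chr6:31357180-31357429, minus strand: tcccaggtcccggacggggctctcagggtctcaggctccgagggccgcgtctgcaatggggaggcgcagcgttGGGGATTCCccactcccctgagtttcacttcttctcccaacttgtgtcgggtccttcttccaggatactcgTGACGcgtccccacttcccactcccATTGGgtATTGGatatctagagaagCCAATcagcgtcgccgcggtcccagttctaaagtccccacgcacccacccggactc
HLA-C, chr6:31272093-31272342, minus strand: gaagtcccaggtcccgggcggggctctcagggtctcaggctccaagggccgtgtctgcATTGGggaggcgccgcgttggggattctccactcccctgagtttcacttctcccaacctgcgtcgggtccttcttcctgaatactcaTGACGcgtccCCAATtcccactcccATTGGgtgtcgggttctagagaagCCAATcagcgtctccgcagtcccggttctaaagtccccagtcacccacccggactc
B2M, chr15:44711267-44711516, plus strand: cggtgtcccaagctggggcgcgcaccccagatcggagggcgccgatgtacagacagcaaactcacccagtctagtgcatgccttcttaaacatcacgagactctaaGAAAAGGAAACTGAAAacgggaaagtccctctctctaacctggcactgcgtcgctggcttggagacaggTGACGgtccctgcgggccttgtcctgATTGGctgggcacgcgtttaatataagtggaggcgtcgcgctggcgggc
TAP1, chr6:32853705-32853954, minus strand: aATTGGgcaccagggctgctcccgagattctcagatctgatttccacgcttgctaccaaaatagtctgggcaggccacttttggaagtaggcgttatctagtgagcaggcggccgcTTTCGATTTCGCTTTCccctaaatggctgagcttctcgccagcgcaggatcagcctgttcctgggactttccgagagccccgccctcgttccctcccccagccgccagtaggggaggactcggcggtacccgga
TAP2, chr6:32838740-32838989, minus strand: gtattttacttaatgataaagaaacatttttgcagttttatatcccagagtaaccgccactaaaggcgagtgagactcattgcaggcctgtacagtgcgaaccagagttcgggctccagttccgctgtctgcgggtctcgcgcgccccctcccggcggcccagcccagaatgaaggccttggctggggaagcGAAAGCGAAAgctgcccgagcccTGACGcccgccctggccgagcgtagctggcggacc

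Counted back from the start site, the kappa B match of HLA-B spanned bases -177 to -169, and the window of HLA-C held no such match. The TGACG letters and at least 3 CCAAT boxes stood in both. B2M held a pair of overlapping ISRE cores at -144 to -135 and -138 to -129, and TAP1 a pair at -134 to -125 and -128 to -119. TAP2 held 1 ISRE core at -58 to -49. Of the promoters not printed, that of HLA-F held 1 ISRE core and 2 CCAAT boxes, and that of TAPBP held 2 overlapping ISRE cores and a kappa B match. No GAS letters were found in the 7 windows. A match describes letters only, and binding was not measured here. Each motif was searched as a fixed pattern of letters, so other spellings of the same element were not marked. A window without a match can still hold such an element.

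Each library held 42092664 to 43434425 counts. MORC2 itself (chromosome 22) was lower in shMORC2, with 47.1 ± 1.47 CPM (the count scaled to a common library size by TMM, SD, n = 3) in shCtrl and 30.5 ± 4.07 in shMORC2, so that a large share of its transcript remained (log2 fold change -0.63, SE 0.10, edgeR adjusted p = 0.000216). Of the epithelial markers, KRT8, a keratin of simple epithelia in general, had 15380 ± 2261 CPM in the control and 15071 ± 2521 CPM in the depleted libraries. The intestinal factor CDX2 had 15.2 ± 1.68 CPM in shCtrl and 21.2 ± 4.50 CPM in shMORC2 (edgeR adjusted p = 0.0158), and CDX1, another intestinal factor, had at most 4 counts in every library and was not tested. Of the leukocyte markers, PTPRC had 0 counts in the 3 shCtrl libraries and at most 6 in shMORC2, and MS4A1 had 0 counts throughout. CD14 had 6 to 26 counts and NKG7 had 3 to 26, and neither was called (edgeR adjusted p = 0.140 and 0.151). CD68, a lysosomal membrane protein on that list, was called, rising from 34.1 ± 4.60 to 82.4 ± 28.6 CPM (SD, n = 3 each, edgeR adjusted p = 0.000296). CD68 set the summed level of the 10 leukocyte markers, which ran from 30.8 to 39.5 CPM in shCtrl and from 51.0 to 103 CPM in shMORC2. The part of CD68-expressing cells in the results was not tested.

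MHC class I transcripts were mostly more abundant after MORC2 depletion. Of the 9 genes, 7 were called higher, 1 (TAP2) was called lower and 1 (HLA-E) was not called, where a call is a Benjamini-Hochberg adjusted p below 0.05 (edgeR, adjusted over all 21005 genes tested). Over all genes tested, 39.5% were called, 19.9% higher and 19.6% lower. The 3 shMORC2 values of a gene lay wholly above the 3 shCtrl values for 6 members and wholly below them for 1, against 50.2% of all genes on one side or the other. The median log2 fold change was 0.49 over the 9 genes and -0.0056 over all genes tested. All 9 passed the filter on low counts. In bulk RNA, more cells that express a gene and more RNA per cell cannot be told apart.

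**Figure D1:**
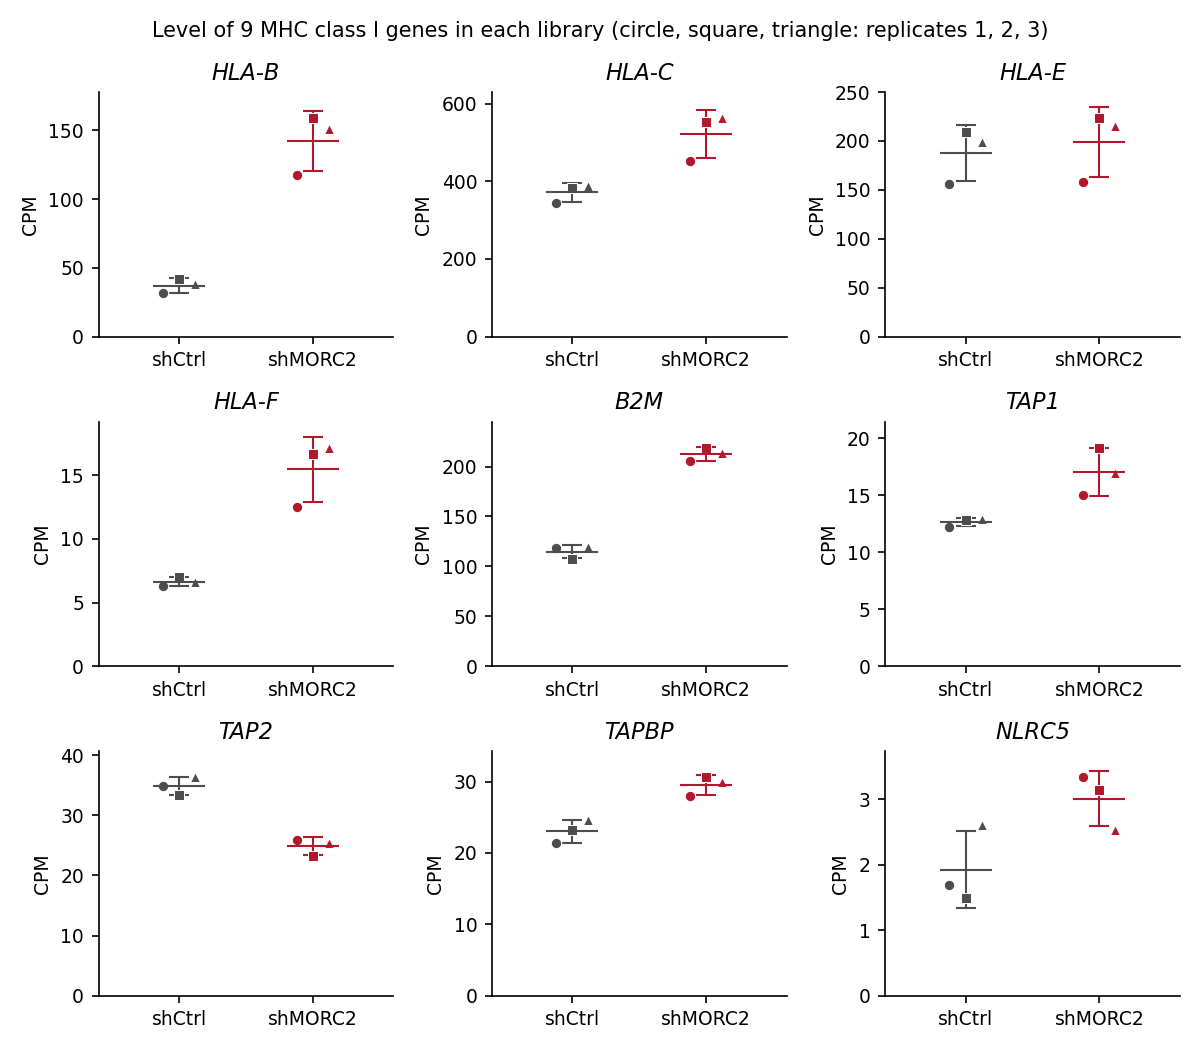
Level of each of the 9 genes in CPM (linear axes from 0) in the 3 shCtrl (grey) and 3 shMORC2 (red) libraries, with the group mean (wide bar) and SD (whiskers). HLA-B rose from 37.2 to 142 CPM on average and TAP2 fell from 34.9 to 24.9 CPM, while the groups of HLA-E and NLRC5 overlapped.

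HLA-B, a classical heavy chain that presents peptides to CD8 T cells, changed most among the 9 genes. It had 31.4, 41.9 and 38.2 CPM in shCtrl replicates 1, 2 and 3 and 117, 159 and 151 CPM in shMORC2 replicates 1, 2 and 3. Even the lowest shMORC2 library stood far above the highest shCtrl library. The mean rose 3.83-fold (95% interval 3.18 to 4.61), from 37.2 ± 5.33 to 142 ± 22.1 CPM (SD, n = 3 each), a log2 change of 1.94 (SE 0.12, edgeR adjusted p = 3.07e-07). An antisense gene known by its clone name, XXbac-BPG248L24.12, shares 542 exonic bases with HLA-B and had 768, 937 and 809 counts in shCtrl and 2934, 3908 and 3697 in shMORC2, a log2 fold change of 2.06 (edgeR adjusted p = 2.44e-07). Whether the counting used strand is not given in the sources used here, so reads of the pair cannot be told apart.

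HLA-C, the other classical heavy chain of the set and also a ligand of inhibitory receptors on natural killer cells, was the most abundant of the 9 genes. Its level was 344, 382 and 388 CPM in the shCtrl libraries and 452, 554 and 562 CPM in the shMORC2 libraries. The groups did not overlap, but the step was far smaller than that of HLA-B: the log2 change was 0.49 (SE 0.09, edgeR adjusted p = 0.00101), or 1.41-fold. Within each library the log2 ratio of HLA-B RPKM to HLA-C RPKM moved from -3.59 ± 0.134 in shCtrl to -2.15 ± 0.0741 in shMORC2 (SD, n = 3 each). This ratio was chosen after its values were seen. The difference of 1.45 had an exact permutation p of 0.1 (two-sided), the smallest that 3 libraries against 3 allow.

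HLA-E, a nonclassical heavy chain that displays leader peptides of other class I chains to the NKG2A receptor, was not called. The 3 shCtrl libraries had 156, 209 and 199 CPM, and the 3 shMORC2 libraries had 158, 223 and 215 CPM. The groups overlapped almost fully, and in each group replicate 1 was the low library. The fold change was 1.06 with a 95% interval from 0.872 to 1.28 (log2 fold change 0.08, SE 0.13, edgeR adjusted p = 0.649), so a rise as large as the 1.41-fold of HLA-C lay outside the interval. Within replicate numbers the shMORC2 library was higher by 1.92, 14.4 and 16.5 CPM. Its direction turned without shCtrl replicate 1 (-0.038) and without shMORC2 replicate 2 (-0.0097).

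HLA-F, a nonclassical heavy chain that can reach the surface without peptide, was rare but rose clearly. It had 6.30, 7.02 and 6.59 CPM in shCtrl and 12.5, 16.7 and 17.2 CPM in shMORC2, with no overlap. The log2 change was 1.22 (SE 0.13, edgeR adjusted p = 1.34e-05), or 2.33-fold. Of 3 opposite-strand genes that share exonic bases with it, HCG4P11 rose (log2 fold change 2.19, edgeR adjusted p = 8.91e-06), while HLA-F-AS1 (0.015, edgeR adjusted p = 0.954) and RPL23AP1 (0.57, edgeR adjusted p = 0.113) were not called.

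Near-identical sequence between the HLA genes is a limit on all 4 heavy chains. How reads placed at several loci were counted is not given in the sources used here, and the alleles of SW480 can differ from those of the reference. Over the 18 class I HLA loci in the table, genes and pseudogenes with single-letter names, 13 were tested, 6 were called higher and 0 lower (19.9% and 19.6% over all genes). Summed into 1 value, the 18 loci had 1456, 1596 and 1607 CPM in shCtrl and 1707, 2130 and 2148 CPM in shMORC2, so that the groups stayed apart. The log2 fold change of the sum was 0.36 (SE 0.096, edgeR adjusted p = 0.00911). The pseudogenes HLA-J (log2 fold change 0.36, edgeR adjusted p = 0.0224) and HLA-L (0.41, edgeR adjusted p = 0.0368) were among the called loci. HLA-G, the heavy chain known from the placenta, was not, at 2.93 CPM on average in shCtrl and 3.23 CPM in shMORC2 (edgeR adjusted p = 0.516). Antisense genes share exonic bases with these 3 loci too.

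Among the 4 heavy chains of the set, compared per length as RPKM (counts per kilobase of exon, scaled to the library total), the make-up differed between the groups. HLA-B made up 5.18%, 5.85% and 5.39% of their summed RPKM in shCtrl and 14.2%, 15.0% and 14.3% in shMORC2. The share of HLA-E was 27.9% ± 1.79 in shCtrl and 20.4% ± 1.02 in shMORC2 (SD, n = 3 each), and the 2 groups did not overlap. HLA-C held the largest share in both groups, with 65.9% ± 2.08 and 64.05% ± 1.43, and here the groups overlapped. HLA-F held the smallest share, 0.681% ± 0.0376 and 1.09% ± 0.0398.

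B2M, the light chain that every class I heavy chain needs to fold, rose with little spread between libraries. It had 118, 107 and 119 CPM in shCtrl and 205, 219 and 214 CPM in shMORC2. All 3 shMORC2 libraries stood well above the shCtrl libraries, and the log2 change was 0.89 (SE 0.07, edgeR adjusted p = 2.20e-06), or 1.85-fold. As a ratio within a library, the summed RPKM of the 4 heavy chains over the RPKM of B2M was 3.38, 3.76 and 3.59 on the log2 scale in shCtrl and 3.03, 3.29 and 3.32 in shMORC2. The mean difference was -0.36 on that scale without overlap between the groups. The exact permutation p was 0.1 (two-sided), the smallest that 3 unpaired libraries against 3 allow. With HLA-B and HLA-C alone in the sum the difference was -0.22 and the groups overlapped (exact permutation p = 0.2). The level of the ratio rests on the exon length used by the authors. Per kilobase of canonical transcript in GENCODE, a setting not planned at the start, it averaged 1.49 in shCtrl and 1.20 in shMORC2. The difference was then -0.30 (exact permutation p = 0.1).

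**Figure D2:**
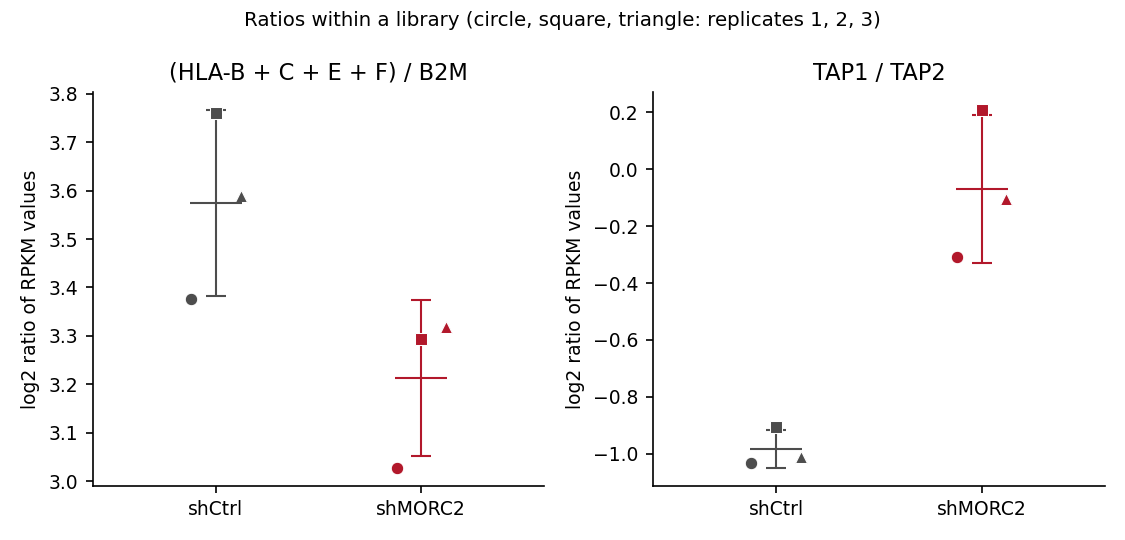
Log2 ratio of RPKM values within each library for the 4 heavy chains over B2M (left) and TAP1 over TAP2 (right), with shCtrl in grey, shMORC2 in red, wide bars for means and whiskers for SD, on axes that do not start at 0. The left ratio averaged 3.57 in shCtrl and 3.21 in shMORC2, and the right ratio -0.98 and -0.069. The levels of both ratios rest on the exon lengths used by the authors.

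The subunits of the peptide transporter moved in opposite directions. TAP1 had 12.2, 12.8 and 12.9 CPM in shCtrl and 15.0, 19.2 and 17.0 CPM in shMORC2, a log2 change of 0.43 (SE 0.11, edgeR adjusted p = 0.00575). TAP2 had 34.9, 33.5 and 36.3 CPM in shCtrl and 26.0, 23.2 and 25.5 CPM in shMORC2, a log2 change of -0.49 (SE 0.08, edgeR adjusted p = 0.000464). Neither gene's groups overlapped, and the direction held for each of the 3 replicate numbers in either gene. On the log2 scale the RPKM ratio of TAP1 to TAP2 was -1.03, -0.91 and -1.01 in shCtrl and -0.31, 0.21 and -0.11 in shMORC2. The difference was 0.91 (exact permutation p = 0.1, two-sided, the smallest that 3 unpaired libraries against 3 allow). Leaving out any 1 library gave differences from 0.77 to 1.03. TAP1 shares 456 exonic bases with PSMB8-AS1 on the opposite strand, which rose (log2 fold change 1.07, edgeR adjusted p = 0.000355). TAP2 shares 2064 exonic bases with the same-strand gene XXbac-BPG246D15.9, which fell by 0.50 on the log2 scale (edgeR adjusted p = 0.000435), so how reads were split between those entries is uncertain.

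TAPBP, the tapasin gene, had 21.4, 23.2 and 24.6 CPM in shCtrl and 28.0, 30.6 and 29.9 CPM in shMORC2. The step was small but the groups stayed apart, with a log2 change of 0.36 (SE 0.09, edgeR adjusted p = 0.00509), or 1.28-fold.

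NLRC5, the activator of class I genes, was the least abundant of the set and its call was the least firm. It had 74, 63 and 107 counts in shCtrl and 148, 131 and 108 in shMORC2, or 1.69, 1.49, 2.60 and 3.34, 3.15, 2.54 CPM. The highest shCtrl library stood above the lowest shMORC2 library, so the groups overlapped. The log2 change was 0.64 (SE 0.22, edgeR adjusted p = 0.0317). The call was lost without shCtrl replicate 1 (edgeR adjusted p = 0.0797), shCtrl replicate 2 (0.135), shMORC2 replicate 1 (0.0717) or shMORC2 replicate 2 (0.0926), with log2 fold changes from 0.49 to 0.92 over the 6 omissions.

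**Figure D3:**
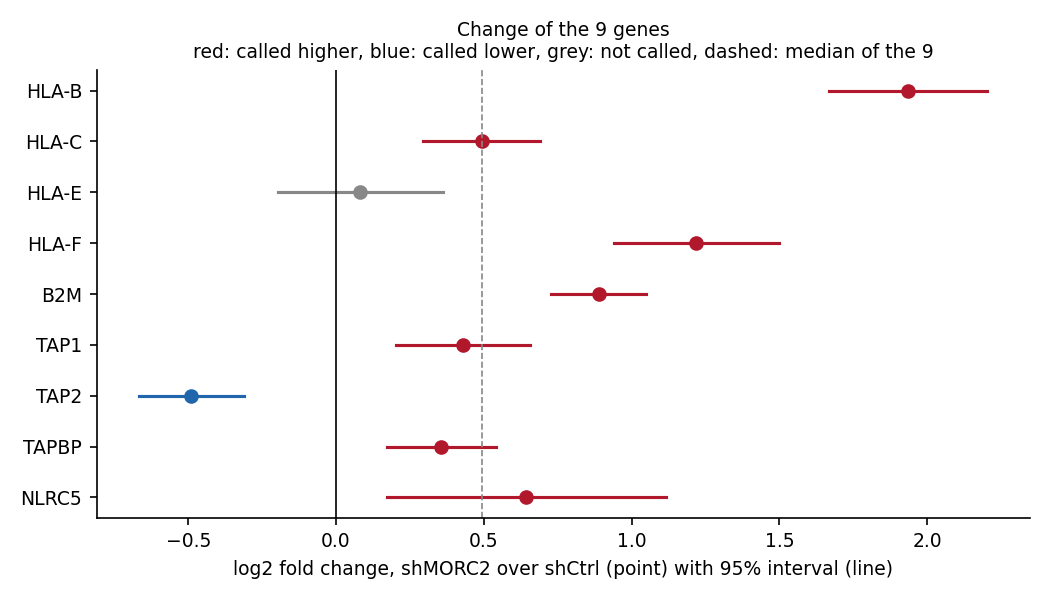
Log2 fold change of each of the 9 genes (points) with its 95% interval (lines), shMORC2 over shCtrl. Red genes were called higher, TAP2 in blue was called lower, and the interval of HLA-E in grey, from -0.20 to 0.36, included 0. The dashed line marks the median of the 9, 0.49.

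Levels between the genes can be compared only per length. On the deposited RPKM scale the order in shCtrl ran from HLA-C (148 ± 6.58) through HLA-E (63.1 ± 8.60), B2M (18.9 ± 1.14), HLA-B (12.4 ± 1.64), TAP2 (5.47 ± 0.185), TAPBP (4.56 ± 0.213), TAP1 (2.77 ± 0.0345) and HLA-F (1.53 ± 0.0806) to NLRC5 (0.155 ± 0.0443), and no neighbours overlapped. In shMORC2 HLA-B (47.0 ± 6.36) had passed B2M (34.8 ± 0.413), and TAP2 (3.88 ± 0.302), TAP1 (3.70 ± 0.380) and HLA-F (3.54 ± 0.521) overlapped in that order. These positions rest on the exon length used by the authors, which for B2M is 6089 bases against 943 for its canonical transcript in GENCODE. Per kilobase of canonical transcript B2M came second after HLA-C in both groups. Its values were 122 ± 7.35 and 225 ± 2.66 counts per kilobase, scaled to the library total as in RPKM and not by TMM.

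The libraries of 1 replicate number shared part of the variation. In shMORC2, replicate 1 was the lowest of its group for 6 of the 7 genes called higher, and in shCtrl for 5 of the 7. The shMORC2 replicate 1 library also kept the most MORC2, with 1554 counts against 1219 and 1157 in the others. Whether these values are linked was not tested.

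The wider route was read from lists of genes with known roles, each against the 39.5% called over all genes (19.9% higher and 19.6% lower). In the peptide loading complex and its trimming enzymes, 3 of 6 were called higher and 0 lower. CALR, which brings the heavy chain to tapasin, had 908 ± 86.6 CPM in shCtrl and 1570 ± 106 CPM in shMORC2 (log2 fold change 0.79, SE 0.09, edgeR adjusted p = 2.03e-05), and PDIA3, its partner enzyme, changed by 0.77 (edgeR adjusted p = 9.31e-06). CANX, the chaperone of newly made heavy chains, changed by 0.44. TAPBPL, a tapasin relative, and the trimming enzyme ERAP1 were not called.

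Among the immunoproteasome subunits and the PA28 activator, 3 of 5 were called higher and 0 lower. PSMB9, whose start site lies 488 bases from that of TAP1 on the other strand, had a mean that rose from 1.002 ± 0.202 to 3.01 ± 0.381 CPM (SD, n = 3 each, log2 fold change 1.58, edgeR adjusted p = 7.64e-05). PSMB8, which lies between TAP2 and TAP1, rose from 12.2 ± 0.780 to 22.3 ± 2.20 CPM (log2 fold change 0.87, edgeR adjusted p = 2.59e-05). PSME1 rose by 0.23, while PSMB10 and PSME2 were not called. Of the 3 constitutive catalytic subunits 1 was called, PSMB7, which rose by 0.33 (edgeR adjusted p = 0.00256), and 2 were called when blocked by replicate number.

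Across the stretch of chromosome 6 from HLA-F to TAPBP, 3.59 Mb long, 174 genes other than the members were tested. Of these 51 (29.3%) were called higher and 22 (12.6%) lower, against 19.9% and 19.6% over all genes, and their median log2 fold change was 0.13. Neighbours in this stretch share sequence and overlap, so they are not independent.

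Of 15 transcription factors that act at class I promoters, 3 were called higher and 1 lower, which is below the share over all genes. IRF9, a factor of the interferon response, rose from 9.04 ± 1.05 to 13.1 ± 2.19 CPM (SD, n = 3 each, edgeR adjusted p = 0.00664), and RFXANK, a factor of class I and class II promoters, rose by 0.33 on the log2 scale (edgeR adjusted p = 0.0115). IRF2, which can oppose IRF1 at such sites, fell by 0.34 (edgeR adjusted p = 0.0381) with overlapping groups. RELA, a subunit of NF-kappa B, and NFYA, which binds CCAAT boxes, were not called (edgeR adjusted p = 0.754 and 0.964). Under limma without a filter the list had 2 calls.

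None of the 7 interferon genes in the list, of types beta, gamma, lambda, epsilon and kappa, reached the filter on low counts. Of these 5 had at most 3 counts in every library, and IFNG and IFNB1 had 0 in all 6, where a count of 0 allows up to 3 in a library. Of 11 interferon receptors and kinases 2 were called higher and 3 lower. IL10RB, a shared receptor chain, fell by 1.35 on the log2 scale, from 14.0 ± 1.37 to 5.49 ± 0.388 CPM (edgeR adjusted p = 2.39e-06), and IFNGR2 fell by 0.72, from 48.3 ± 5.34 to 29.3 ± 1.07 CPM (edgeR adjusted p = 5.39e-05). IFNAR1 rose by 0.35 (edgeR adjusted p = 0.00839), and SOCS3, a feedback inhibitor of the pathway, fell by 0.81 (edgeR adjusted p = 0.00982). Without shMORC2 replicate 3 the list had 3 calls in place of 5, and under limma on log2(RPKM + 1) without a filter it had 2.

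In a list of 26 interferon-stimulated genes 22 were tested, 10 were called higher and 0 lower, with a median log2 fold change of 0.22. GBP2 rose from 8.50 ± 0.969 to 23.8 ± 4.94 CPM and ISG15 from 42.7 ± 4.31 to 82.7 ± 7.38 CPM (SD, n = 3 each, edgeR adjusted p = 5.51e-06 and 7.18e-06). The same list held 12 genes that were not called, among them SP100 and PML, components of the same nuclear bodies (edgeR adjusted p = 0.0564 and 0.623). When blocked by replicate number the list had 13 calls, of which SP100 (-0.18, edgeR adjusted p = 0.0163) and OASL (-0.58, edgeR adjusted p = 0.0456) were lower. Without shMORC2 replicate 2 the count of called genes was 6 and under limma it was 6 with the RPKM filter and 5 without.

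Of 13 class I-like genes tested 6 were called higher, 0 lower, and 7 were not called. The share called was 46.2%, against 39.5% over all genes (19.9% higher and 19.6% lower). The called genes included MICA (18.3 ± 2.84 to 25.4 ± 2.96 CPM), ULBP2 (4.14 ± 1.02 to 7.75 ± 1.98 CPM) and RAET1E, all ligands of the natural killer receptor NKG2D (SD, n = 3 each, edgeR adjusted p = 0.00668, 0.00368 and 0.00651). Without shMORC2 replicate 2 the count of the list was 3, and limma on log2(RPKM + 1) without a filter called 0 of them. Of 6 genes for class I surface turnover tested, 1 was called, IRGQ, which fell by 0.28 (edgeR adjusted p = 0.0367). That list had 0 calls without shCtrl replicate 1, shCtrl replicate 3 or shMORC2 replicate 3, 2 without shMORC2 replicate 1, and 3 when blocked by replicate number. Of 13 class II genes 6 were tested and 2 called higher, HLA-DQB1 (1.29 ± 0.152 to 3.83 ± 0.610 CPM, edgeR adjusted p = 3.77e-05) and HLA-DMB (3.26 ± 0.572 to 5.88 ± 0.598 CPM, edgeR adjusted p = 0.000981). CIITA, the class II counterpart of NLRC5, was not called (log2 fold change 0.25, edgeR adjusted p = 0.145).

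**Figure D4:**
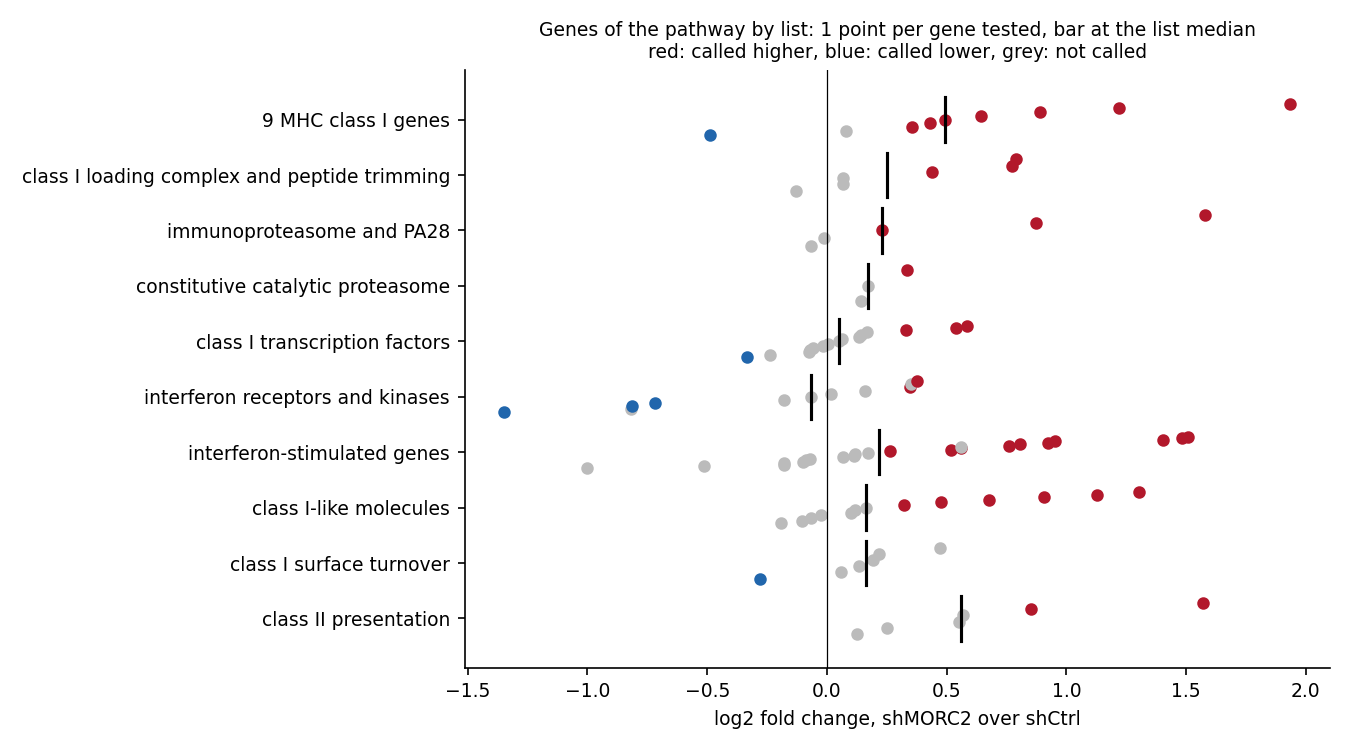
Log2 fold change, shMORC2 over shCtrl, of every tested gene in the 9 class I genes and 9 lists of the wider route, with 1 point per gene, red for called higher, blue for called lower, grey for not called, and a black bar at each median. The medians ran from -0.066 for interferon receptors and kinases to 0.56 for class II genes, against 0.49 for the 9 class I genes. The class II median lay between CD74 (6 to 30 counts) and HLA-DOB (6 to 16 counts), low genes that were not called.

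Of the genes on these lists, ISG15, PSMB7 and MX1 followed the mean profile of the 9 members most closely over the 6 libraries, with Pearson r of 0.998, 0.989 and 0.975. These values describe 6 libraries in which most of the spread is the step between the groups, and the libraries share their scaling.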

How the data were processed

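RNA from 3 shCtrl and 3 shMORC2 SW480 libraries was sequenced by the authors. Per the labels, reads were trimmed with Trimmomatic 0.36, aligned with STAR 2.5.3a to GRCh38 and counted with featureCounts (Subread 1.5.1), and edgeR 3.12.1 is also named. The use of strand, of molecular identifiers and of reads placed at several loci is not given in the sources used here. The authors deposited raw counts (56303 genes) and RPKM values (count over exon length and library total). Tables of splicing comparisons were not used.

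Counts were filtered (filterByExpr), scaled by TMM and tested with edgeR 4.0.16 (R 4.3.3, quasi-likelihood, group as the only term), with Benjamini-Hochberg adjustment over 21005 genes. Standard errors are the log2 fold change over the square root of F, and intervals are at 95%. Ratios were compared by exact permutation tests (scipy 1.17.1). The alternatives were DESeq2 1.42.0, other scalings and filters, limma 3.58.1 on log2 RPKM (pseudocounts 1 and 0.1), the replicate number as a block, summed HLA loci and the omission of each library. The scripts were tested on simulated data. Same-numbered libraries deviated together (r = 0.215, 0.111 and 0.102 across genes), so the numbers were taken to pair the libraries, from the values alone. The main fit and the main ratio tests left this pairing out, and the replicate block is given as an alternative.

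The members, lists and naming rule were chosen with earlier results of these data known. The rule named the members, MORC2, PSMB9, class I HLA loci, up to 4 called and 2 abundant uncalled genes of each list, and the 3 genes most like the mean member profile. Other class I loci are given mainly as a sum, and 1 gene the rule named is not reported here. PTPRC, MS4A1, IFNG, IFNB1 and genes that overlap members were named after their values were seen. Of the fibroblast and endothelial markers, which stand for other tissue types, 1 of 4 tested was called (VWF, higher). Of the colorectal epithelial markers, 1 of 6 tested was called (CDX2, higher).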

Additional observations from a re-analysis of the deposited data

How the results depend on the processing

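Of the 9 members, 7 or 8 were called over the alternatives, and of the 6 values left when the HLA loci were summed, 6 were called. HLA-B, HLA-C, HLA-F, B2M, TAP1, TAP2 and TAPBP kept their calls in every alternative that tested them. NLRC5 lost its call under limma on log2(RPKM + 1) without a filter (log2 fold change 0.10, adjusted p = 0.182) and with 4 of the 6 libraries left out in turn. Its mean RPKM was under 1, so the limma fits with a filter of 1 did not test it. HLA-E turned to -0.038 without shCtrl replicate 1 and -0.0097 without shMORC2 replicate 2, within -0.038 to 0.23 over the 6 omissions. limma on log2(RPKM + 1) without a filter called 5454 of 36613 genes, where edgeR called 8301 of 21005. With the replicate block 10287 genes and 8 members were called. The block changed no call among members, HLA-E keeping an adjusted p of 0.271, and the ratio tests then had exact p-values of 0.25, the smallest that 3 pairs allow. Among list genes the block added calls in 9 genes and removed 0, and the epithelial and the fibroblast and endothelial markers then had 2 calls each. The single calls of these marker lists ran from 0 to 2 over the library omissions, and the leukocyte markers had 2 calls without shCtrl or shMORC2 replicate 1. Scalings moved the median of all genes by at most 0.020 on the log2 scale. The all-loci sum over B2M, added after seeing the data, gave a difference of -0.56.

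The values are limited by 3 libraries, 1 line and 1 hairpin a group, and by reads that HLA loci and overlapping genes can share.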
